A study of Rattus norvegicus with 2 samples.

Results

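The genes described here are the carriers of the rat Slc1, Slc3, Slc6, Slc7, Slc15, Slc16, Slc36, Slc38 and Slc43 families, which move amino acids, transmitter amines, small peptides and monocarboxylates such as lactate across membranes. They were matched by gene symbol, leaving out Slc1a2, Slc1a3, Slc7a10 and Slc7a11, and 62 of the 17049 genes in the expression table matched. This choice was made with earlier results of these data known. Slc7a6os was matched by its name only and is not a carrier, and Slc43a3 encodes a nucleobase carrier. RNA came from primary oligodendrocyte precursor cells (OPCs) of wild-type adult rat brain, the dividing glia from which myelinating oligodendrocytes form. The cells were grown in OGM medium at 37 °C and 5% CO2. One library (Aβ) came from cells given amyloid-β, the peptide of Alzheimer's plaques, at 1 µM for 2 days. The other (control) is labelled DMSO, a solvent, although the free-text treatment note names Aβ for this sample too. How many animals gave each culture is not given in the labels.

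Each group had 1 library, so no difference below has a replicate check or a p-value. The libraries held 15704932 (Aβ) and 15663751 (control) estimated reads. Levels are in TPM, a unit that corrects for gene length and can be compared between genes. Differences are read ratios: the share of a library's reads that fell on the gene with Aβ, divided by that share in the control. Their 95% intervals are exact (Clopper-Pearson), cover counting error only and compare 2 libraries, not the conditions. “Higher by reads” and “lower by reads” mean that the interval lies wholly above or below 1. A gene is past the fold where its ratio is at least 1.2 or at most its inverse. Both rules were applied to genes with 50 or more reads over both libraries. In bulk RNA, fewer cells of a type and less RNA per cell cannot be told apart. Of the lineage markers, Olig2 was at 336 TPM under Aβ and 375 TPM in the control and Pdgfra at 23.2 and 24.6 TPM, but Sox10 had only 22 and 33 reads and Gpr17 4 and 5. The OPC markers went both ways: of 8 measured, 5 were lower, 4 with an interval below 1 and 2 above. Cspg4 lay farthest from equal, on 540 and 303 reads (1.78, 1.54 to 2.05). Lhfpl3, listed as LOC103692025, was also higher (1.08, 1.04 to 1.12), while Olig2 was lower (0.890, 0.864 to 0.917). The astrocyte marker Gfap was at 328 and 368 TPM. Astrocyte markers were lower with Aβ for 7 of 8 measured, 5 with an interval below 1 and 1 above, and microglial markers for 6 of 8, 4 with an interval below 1. Over all genes with 50 or more reads, 12.7% had an interval below 1 and 12.2% above. Summed levels were 1883 and 1946 TPM for the astrocyte list, 274 and 330 TPM for the microglial list, 43.1 and 37.8 TPM for the neuron list and 4.51 and 4.45 TPM for the endothelial list. The pericyte and fibroblast list summed to 9.51 and 9.69 TPM, of which Cspg4, also an OPC gene, made up 6.65 and 3.70 TPM. The 4 other genes of that list summed to 2.86 and 5.99 TPM, on 127 and 257 reads (0.493, 0.395 to 0.612), with Col1a2 at 49 and 134 reads and Col1a1 at 26 and 61. Of the endothelial markers, Pecam1 had 2 and 1 reads and Cdh5 1 and 1. The OPC list summed to 2743 and 2950 TPM and the myelin list to 213 and 226 TPM.

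Amino acid carriers set the supply of building blocks for protein synthesis, and several of them work as pairs: glutamine brought in by Slc1a5 or the Slc38 carriers can leave in exchange for leucine through the complex of Slc7a5 and Slc3a2. Inside the cell this supply is read at the lysosome by mTORC1 and by the kinase Gcn2, which acts through Atf4 to raise carrier genes when amino acids run short. In the brain, other members clear GABA and glycine from the extracellular space, and oligodendrocyte lineage cells use Slc16a1 to move lactate.

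Atf4 and its partners bind the C/EBP-ATF composite element, searched for as TGATGNAA on both strands, and Myc and related factors bind the E-box CACGTG. RefSeq promoters (build GRCr8, 250 bases before to 50 after the start) were found for 43 of the 62 genes, 44 promoters in all. The composite element was in 3 of the 44 (6.82%), against 3.98% of 33469 promoters, and the E-box in 9 (20.5%) against 6.42%. Over genes with 50 or more reads the shares were 3 of 30 and 1.98% for the composite element, and 6 of 30 and 9.14% for the E-box. The 3 carriers with a composite element, and the most abundant light chain and lactate carrier, which hold an E-box, are shown 5′ to 3′ upstream of the start with the motif in capitals. In Slc1a4 the element reads on the opposite strand. Slc1a4 also holds an E-box, 20 bases before the start and outside the stretch shown.
Slc7a1 (chr12:11664428-11664487, plus strand): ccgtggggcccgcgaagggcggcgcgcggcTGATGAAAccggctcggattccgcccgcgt
Slc38a1 (chr7:129681506-129681573, minus strand): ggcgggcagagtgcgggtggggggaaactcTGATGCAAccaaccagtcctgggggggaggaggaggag
Slc1a4 (chr14:98761760-98761812, minus strand): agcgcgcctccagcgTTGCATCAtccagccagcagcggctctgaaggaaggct
Slc7a5 (chr19:66872556-66872621, minus strand): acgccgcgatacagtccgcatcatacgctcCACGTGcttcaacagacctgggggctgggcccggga
Slc16a1 (chr2:194812414-194812479, plus strand): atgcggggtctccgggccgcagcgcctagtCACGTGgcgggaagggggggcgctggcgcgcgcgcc

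These 5 genes lay within 1.2-fold in the 2 libraries. Slc38a1 and Slc16a1 were lower by reads, as were 12.7% of all genes with 50 or more reads. Among the carriers with a composite element, the read ratio was 1.03 (0.955 to 1.12) for Slc7a1 and 0.952 (0.911 to 0.995) for Slc38a1. For Slc1a4, which also holds the composite element, it was 0.957 (0.856 to 1.07). The ratio was 1.01 (0.960 to 1.06) for Slc7a5 and 0.947 (0.909 to 0.988) for Slc16a1. A match in these windows is a description of the letters and not of a bound site.

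The cultures, whose RNA also held astrocyte markers such as Gfap, had a small set of abundant carriers and a long tail of scarce ones. Which cells these transcripts came from was not tested. Of the 62 genes, 44 reached 1 TPM in either library, 25 had a mean of 10 TPM or more and 8 a mean of 100 TPM or more. The 10 highest held 70.8% of the summed level with Aβ and 71.1% in the control. The heavy chain Slc3a2, which brings several Slc7 light chains to the cell surface, stood highest at 303 TPM under Aβ and 311 TPM in the control. Among the 10 highest were also the lactate carrier Slc16a1, the GABA carrier Slc6a11, the peptide carrier Slc15a2, the glutamine carriers Slc1a5 and Slc38a2, the leucine carrier Slc7a5, the glycine carrier Slc6a9 and the glutamine carrier Slc38a1. The order of Slc15a2 and Slc1a5 differed between libraries, with Slc15a2 at 106.92 and Slc1a5 at 115.11 TPM with Aβ, and 120.09 and 93.59 TPM in the control. At the other end, 17 genes had fewer than 50 reads over both libraries, all at 1.42 TPM or less, and 10 of these had 3 or fewer reads in each library. Among those 10 were the serotonin carrier Slc6a4, the neuronal glycine carrier Slc6a5, the glutamate carriers Slc1a6 and Slc1a7 and the Slc38 carriers Slc38a4 and Slc38a5. Where no read was counted, as many as 3 could have been missed, which is 0.191 CPM (reads scaled to the library total) under Aβ and 0.192 CPM in the control.

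**Figure D1:**
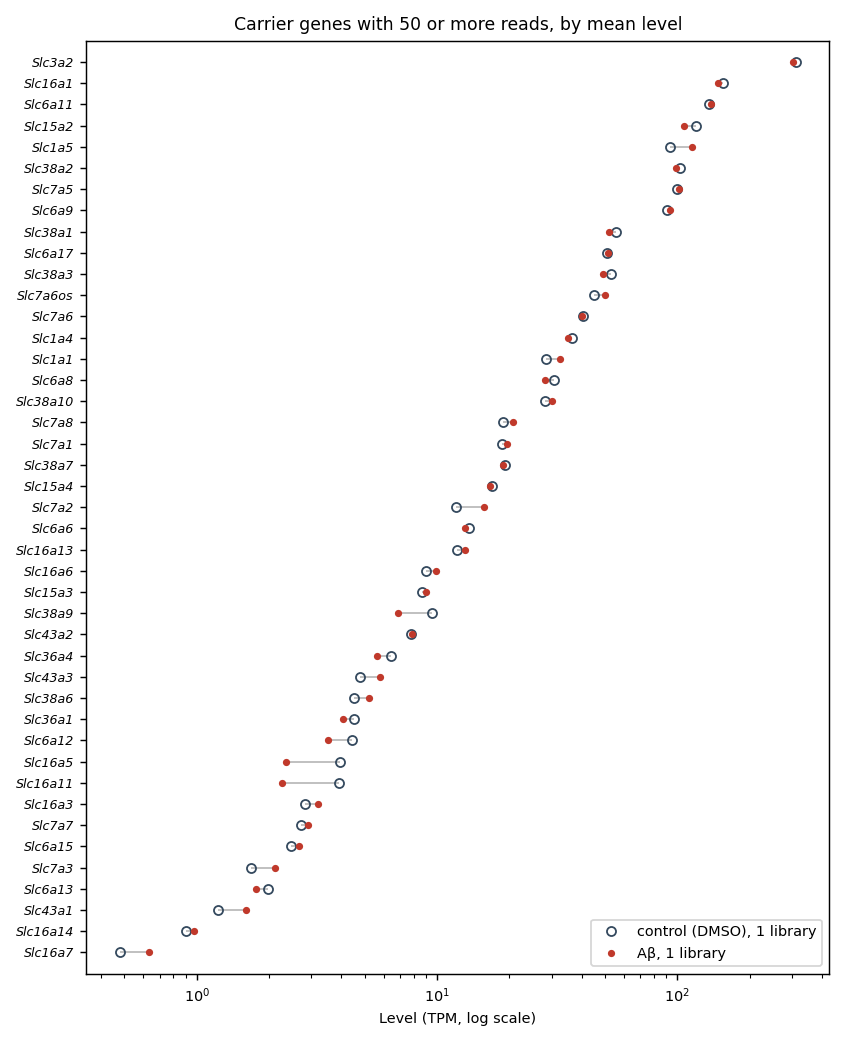
Level of 43 carrier genes with 50 or more reads, in TPM on a log scale, for the Aβ library (filled) and the control library (open). Slc3a2 stands highest in both libraries, and the wider gaps lie mostly among genes under 10 TPM, such as Slc16a5 and Slc16a11.

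Summed over all 62 genes, the level was 1800.1 TPM under Aβ and 1800.4 TPM in the control, so the total carrier transcript level was nearly equal. By reads the sums were 54624 and 55166, a ratio of 0.988 (0.976 to 0.999). By role, 7 of the 15 sums had a counting interval that excluded 1. Adding reads of several genes narrows the interval, and no like share over all genes is at hand, so this count has no background. For single genes with 50 or more reads, 9401 of 12518 intervals held 1, a share that does not carry over to sums. A sum can also rest on 1 abundant gene. The small neutral exchangers Slc1a4 and Slc1a5 summed to 150 TPM under Aβ and 130 TPM in the control, a summed read ratio of 1.16 (1.10 to 1.22). Of these 2, Slc1a5 was at 1.22 and Slc1a4 at 0.957. The 3 peptide carriers summed to 132 and 146 TPM (0.894, 0.860 to 0.931) and the 10 Slc38 carriers to 262 and 273 TPM (0.961, 0.937 to 0.986). The 5 cationic carriers had a summed ratio of 1.09 (1.02 to 1.17), and Slc7a6os with Slc43a3 of 1.13 (1.02 to 1.26). Taken singly, Slc7a6os and Slc43a3 each had an interval that holds 1. The carriers of lactate and pyruvate were at 0.947 (0.909 to 0.987) and those of taurine and creatine at 0.923 (0.866 to 0.984). The glutamate carriers (1.13, 0.996 to 1.29) and Slc36 carriers (0.893, 0.769 to 1.04) lay as far from equal on fewer reads, with intervals that hold 1. The carriers of GABA, glycine and serotonin, the largest sum of any role, were at 355 and 350 TPM (1.01, 0.982 to 1.04).

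**Figure D2:**
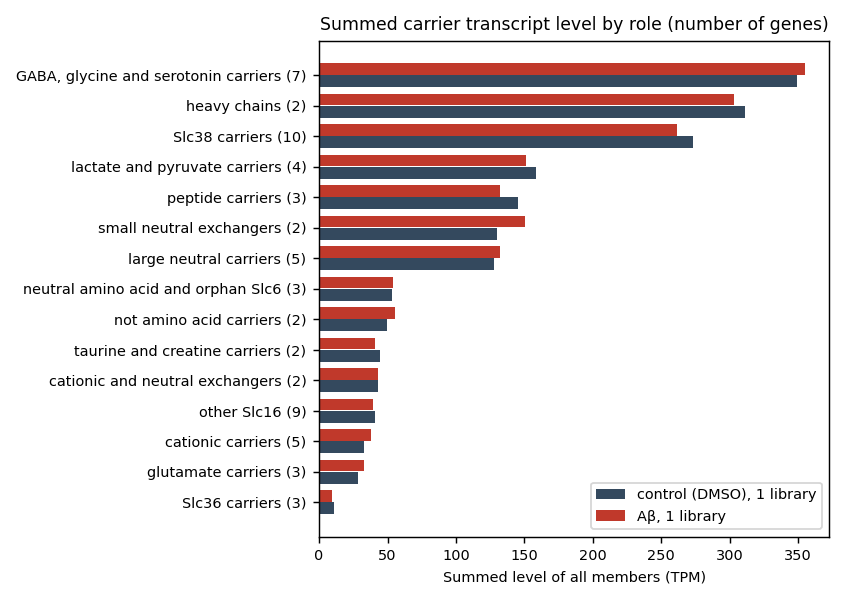
Summed level in TPM of all members of each role, control and Aβ, with the number of genes in parentheses; each bar is 1 library and has no error. The small neutral exchangers are higher with Aβ (150 against 130 TPM) and the peptide carriers lower (132 against 146 TPM), and the largest sum, that of GABA, glycine and serotonin carriers, is 355 against 350 TPM.

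As a list the carriers were spread like other genes. Of the 45 with 50 or more reads, 23 had a ratio above 1 and 22 below 1, with a median log2 ratio of 0.00, as over all 12518 genes at that depth. Their middle ratios (quartiles) ran from 0.939 to 1.07, against 0.935 to 1.07 for all genes. Past the fold, 5 were higher (11.1%), where the background was 8.68%, and 4 lower (8.89%), where it was 7.72%. By reads, 2 were higher (4.44%) against a background of 12.2%, and 7 were lower (15.6%) against 12.7%. Only Slc1a5 and Slc7a2 above, and Slc16a5 below, met both rules. None of the 45 reached 2-fold, a limit within which 99.2% of all genes also lay. Of the 21 with 1000 or more reads, 20 lay within 1.2-fold (95.2%, against 94.8% of genes at that depth), Slc1a5 being the exception.

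**Figure D3:**
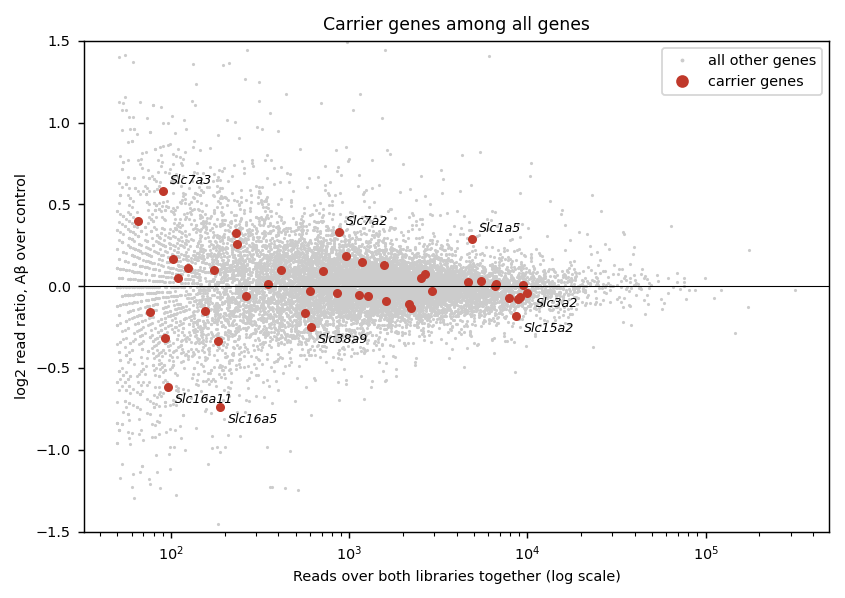
log2 read ratio (Aβ over control) against reads over both libraries (log scale) for carrier genes (red) and all other genes (grey) with 50 or more reads; genes beyond 1.5 in either direction or at 0 reads in 1 library are not drawn. The carriers spread like the other genes, with Slc1a5 above and Slc15a2 below the line at high depth.

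**Figure D4:**
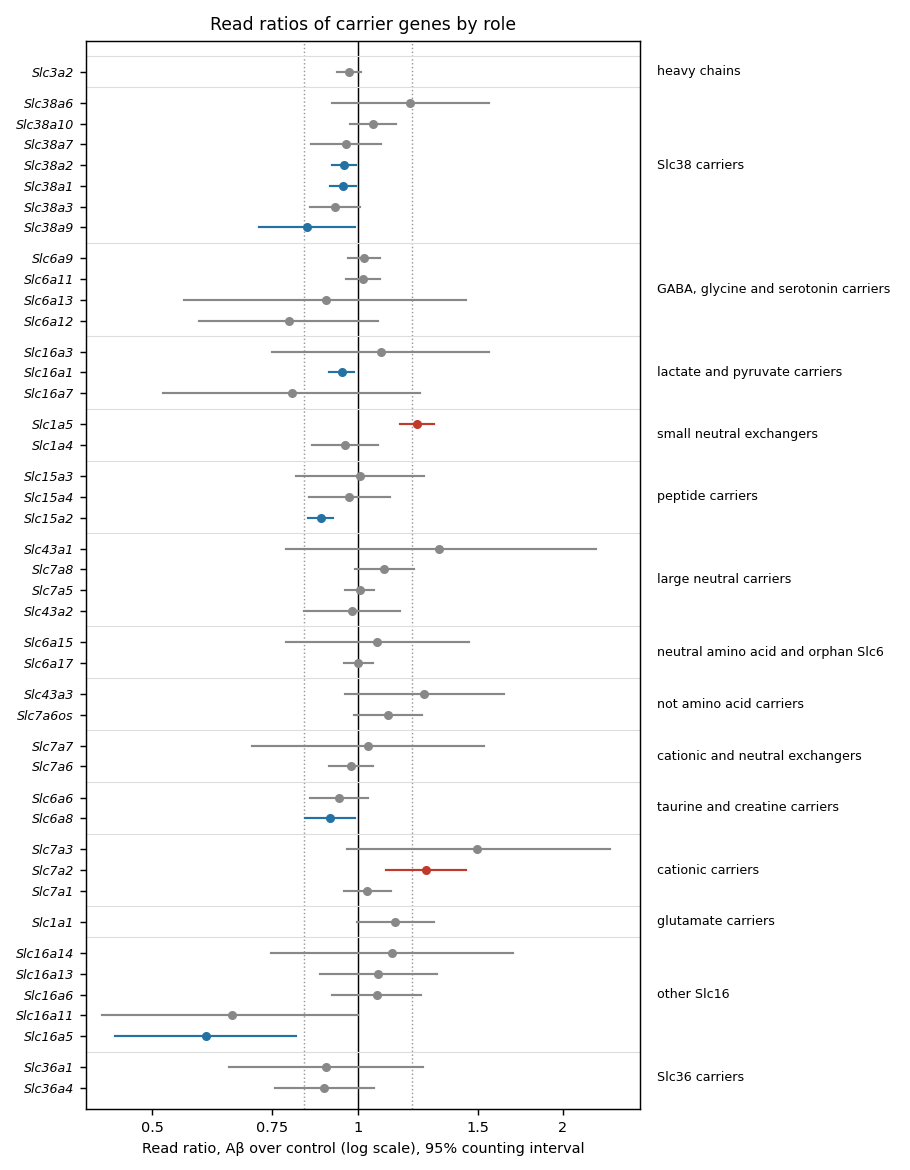
Read ratio of 43 carrier genes with 50 or more reads, grouped by role, with its 95% counting interval; red intervals lie above 1, blue below 1, grey hold 1, and dotted lines mark 1.2-fold either way. Slc1a5 and Slc7a2 are the 2 red genes, and 7 are blue.

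Among abundant carriers Slc1a5 lay farthest from equal. Slc1a5 (gene number 292657), which exchanges glutamine, serine and alanine, had 2688 reads with Aβ and 2193 in the control. Its read ratio was 1.22 (1.16 to 1.29), with whole read numbers in either library. Its closest relative Slc1a4 (305540), which carries serine and alanine, was at 35.2 and 36.6 TPM, with a ratio of 0.957 (0.856 to 1.07). The interval of Slc1a5 lies wholly above that of Slc1a4, so the 2 paralogs differed in ratio by more than counting error between these libraries. The glutamate carrier Slc1a1 (25550) was at 32.5 and 28.5 TPM, with 508 and 446 reads and a ratio of 1.14 (0.998 to 1.29). Slc1a6 and Slc1a7 had at most 1 read in each library. Of the relatives left out by the choice of genes, Slc1a3 was at 1013 and 987 TPM (1.02, 1.00 to 1.03) and Slc1a2 at 35.9 and 38.7 TPM (0.947, 0.801 to 1.12).

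Of the 3 carriers of arginine and lysine with 50 or more reads, 1 was higher by reads with Aβ. The share higher by reads over all genes at that depth was 12.2%. Slc7a2 (64554), an arginine carrier that in macrophages is induced together with inducible nitric oxide synthase, was at 15.6 TPM under Aβ and 11.9 TPM in the control. It had 486 and 385 reads, a ratio of 1.26 (1.10 to 1.44). Slc7a3 (29485), a second arginine carrier, had 54 and 36 reads and a ratio of 1.496 (0.963 to 2.35), past the fold but with an interval that holds 1. Slc7a1 (25648), the widely expressed member, was the most abundant at 19.5 and 18.7 TPM and had a ratio of 1.03 (0.955 to 1.12). Slc7a4 and Slc7a14, whose transport roles are less clear, had 5 and 10 reads, and 3 and 0 reads. Microglial markers, some of them macrophage genes, were lower with Aβ (C1qa 388 and 576 reads, Aif1 174 and 223) while Slc7a2 was higher, and Itgam was at 542 and 484 reads (1.12, 0.986 to 1.27). Their part in the result for Slc7a2 was not tested.

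Transcripts of the leucine uptake complex lay close to equal. Slc3a2 (50567) had 4922 and 5054 reads and a ratio of 0.971 (0.934 to 1.01). Its partner Slc7a5 (50719), the main carrier of leucine and other large neutral amino acids, was at 101.49 and 99.96 TPM, with 3343 and 3310 reads and a ratio of 1.01 (0.960 to 1.06). The counting intervals of these 2 genes together span 0.934 to 1.06. The other light chains were Slc7a8 (1.09, 0.990 to 1.21), Slc7a6 (0.978, 0.909 to 1.05) and Slc7a7 (1.03, 0.699 to 1.53, on 56 and 54 reads). The heavy chain of the cystine and dibasic amino acid system, Slc3a1, had 15 and 9 reads, of which part were divided between gene models. The uniporters of large neutral amino acids, Slc43a2 and Slc43a1, were at 0.981 (0.833 to 1.15) and, on 37 and 28 reads, 1.32 (0.785 to 2.24). The aromatic amino acid carrier Slc16a10 had 21 and 18 reads. Slc7a11, the cystine carrier that also pairs with Slc3a2 and was left out by the choice of genes, was at 74.2 and 85.8 TPM (0.857, 0.829 to 0.886). The nucleobase carrier Slc43a3 was at 5.80 and 4.78 TPM (1.25, 0.957 to 1.64), and Slc7a6os, which lies next to Slc7a6, at 50.02 and 45.12 TPM (1.11, 0.987 to 1.24).

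The Slc38 carriers, which take up or release glutamine, alanine and other small neutral amino acids, included 3 of the 7 carriers lower by reads. Of the 7 Slc38 genes with 50 or more reads, 5 had a ratio below 1 and 2 above; over all genes 12.7% were lower by reads and 6185 of 12518 had a ratio below 1. Slc38a1 (170567) was at 52.1 TPM under Aβ and 55.6 TPM in the control, with 3843 and 4026 reads and a ratio of 0.952 (0.911 to 0.995). Its neighbour on the chromosome, Slc38a2 (29642), the member known to be raised when amino acids are scarce, had 4459 and 4658 reads and a ratio of 0.955 (0.916 to 0.995). These 2 intervals end just under 1, and the genes were 4.80% and 4.52% lower. Slc38a3 (252919), a glutamine carrier of astrocytes, was at 49.2 and 52.8 TPM with a ratio of 0.926 (0.851 to 1.01).

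The lysosomal arginine sensor of this family was lower by reads, with an interval that ends just under 1. Slc38a9 (310091), which reports lysosomal arginine to mTORC1, had 278 reads with Aβ and 329 in the control, a ratio of 0.843 (0.716 to 0.992). By TPM it was at 6.86 and 9.55, a ratio of 0.718, so the deposited TPM moved it further than its reads did. The other lysosomal members had ratios nearer to equal, but their intervals overlap that of Slc38a9, so counting error does not set it apart from them. Slc38a7, which exports glutamine and asparagine from lysosomes, was at 0.963 (0.856 to 1.08). Slc36a1 and Slc36a4, proton-coupled carriers of small amino acids, had ratios of 0.900 (0.648 to 1.25, on 74 and 82 reads) and 0.894 (0.755 to 1.06). Slc38a10 was at 1.05 (0.976 to 1.14) and Slc38a6 at 1.19 (0.916 to 1.56, on 127 and 106 reads).

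Peptide carriers were lower through 1 abundant gene. Slc15a2 (60577), which takes up di- and tripeptides, had 4064 reads with Aβ and 4591 in the control, a ratio of 0.883 (0.846 to 0.921). After Slc1a5 it was the abundant carrier farthest from equal, that is, among the 21 genes with 1000 or more reads. Slc15a3 and Slc15a4, the endolysosomal carriers of histidine and bacterial peptides found in immune cells, were at 1.01 (0.813 to 1.25) and 0.972 (0.847 to 1.11). Slc15a2 is also a gene of astrocytes. The astrocyte markers with 50 or more reads had ratios from 0.849 (Aqp4) to 1.02 (Slc1a3, the most abundant of them and the 1 with an interval above 1), and their list's summed ratio was 0.973 (0.962 to 0.985). The part of astrocyte RNA in the result for Slc15a2 was not tested. Of other carriers known from astrocytes, Slc6a11 had a ratio of 1.02 (0.962 to 1.08) and Slc38a3 of 0.926 (0.851 to 1.01).

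The abundant carriers of transmitters named here lay close to equal. Slc6a11 (79213), the main glial GABA carrier, was at 139 TPM under Aβ and 135 TPM in the control, with a ratio of 1.02 (0.962 to 1.08). The glycine carrier Slc6a9 (116509) had a ratio of 1.02 (0.969 to 1.08), with a small part of its control reads divided between gene models. The betaine and GABA carrier Slc6a12 was past the fold on 81 and 102 reads, with an interval that holds 1 (0.792, 0.584 to 1.07), and its neighbour Slc6a13 had 36 and 40 reads (0.898, 0.556 to 1.44). Slc6a17, a vesicular carrier of neutral amino acids best known from synapses, was at 51.4 and 50.8 TPM with a ratio of 1.00 (0.954 to 1.05), and its relative Slc6a15 at 2.66 and 2.47 TPM (1.07, 0.785 to 1.46).

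The creatine carrier was slightly lower by reads, with an interval that ends just under 1. Among all genes with 50 or more reads, 12.7% were lower by reads. Slc6a8 (50690), the creatine carrier, was at 28.2 TPM under Aβ and 30.7 TPM in the control, with 1058 and 1157 reads and a ratio of 0.912 (0.838 to 0.992). Slc6a6 (29464), the taurine carrier, had a ratio of 0.939 (0.851 to 1.04).

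Of the 9 genes of the monocarboxylate family Slc16 with 50 or more reads, the abundant Slc16a1 and the scarce Slc16a5 were lower by reads. The share lower by reads over all genes at that depth was 12.7%. Slc16a1 (25027), the proton-coupled carrier of lactate, pyruvate and ketone bodies, was at 148 TPM under Aβ and 155 TPM in the control, with 4312 and 4539 reads and a ratio of 0.947 (0.909 to 0.988). Slc16a3, the lactate exporter of glycolytic cells, had 65 and 60 reads (1.08, 0.749 to 1.56). Slc16a7, the high-affinity carrier of neurons, had 41 and 51 reads (0.802, 0.518 to 1.23), whereas its TPM was 0.63 and 0.48, so reads and TPM placed it on opposite sides of equal.

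Slc16a5 (690212), a family member known to carry drugs such as bumetanide and not lactate, had the lowest ratio of the 45 genes. It was at 2.36 TPM under Aβ and 3.95 TPM in the control, with 71 and 118 reads and a ratio of 0.600 (0.441 to 0.812). Slc16a11 (287450) was also low, at 38 and 58 reads (0.653, 0.422 to 1.00), with an interval that just holds 1. Slc16a13 (287451), whose span overlaps that of Slc16a11 in the RefSeq table, had 215 and 200 reads and a ratio of 1.07 (0.880 to 1.31). The sources used here do not say whether strand was used in counting, so reads of these overlapping genes may not be fully told apart. Slc16a6, with divided reads, was at 1.07 (0.919 to 1.24), and Slc16a14 at 1.12 (0.746 to 1.69). The 4 remaining genes, Slc16a4, Slc16a8, Slc16a9 and Slc16a12, had 21 or fewer reads in each library.

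Genes that sense amino acids lay mostly close to equal. Of 30 with 50 or more reads, 14 had a ratio above 1 and 16 below, 3 were higher and 1 lower by reads, and the median log2 ratio was −0.01. Over all genes 12.2% were higher and 12.7% lower by reads. The sestrin gene Sesn3 was lower, at 33.2 and 38.3 TPM (0.857, 0.814 to 0.901), and Flcn, which acts with the Rag GTPases, was higher (1.15, 1.024 to 1.303). The leucine sensor genes Sesn1 (0.893, 0.773 to 1.03) and Sesn2 (0.911, 0.763 to 1.09), added after their values were seen, had intervals that hold 1. Bmt2 (0.863, 0.668 to 1.12), the sensor of S-adenosylmethionine, and Gatsl2 (0.881, 0.774 to 1.00), a relative of the arginine sensor gene Gatsl3, had intervals that hold 1. Atf4, added after its value was seen, was at 307 and 289 TPM (1.06, 1.01 to 1.11).

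Enzymes that make or use amino acids went both ways. Of 32 with 50 or more reads, 8 were higher and 5 lower by reads, where the background was 12.2% and 12.7%, with a median log2 ratio of −0.01. Asparagine synthetase Asns, a target of Atf4, was at 42.97 and 30.83 TPM (1.34, 1.21 to 1.49), and the aspartate aminotransferase Got1 at 31.0 and 24.2 TPM (1.27, 1.12 to 1.45). The arginase gene Arg2 had 44 and 33 reads (1.33, 0.828 to 2.16) and the alanine aminotransferase Gpt 71 and 92 reads (0.770, 0.557 to 1.06). Psat1, an enzyme of serine synthesis added after its value was seen and also known as a target of Atf4, was lower at 211 and 245 TPM (0.856, 0.820 to 0.894).

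In the list of lactate and pyruvate genes and carrier partners, 4 of 15 were higher and 1 lower by reads, beside the same background of 12.2% and 12.7%, with a median log2 ratio of 0.05. The kinase gene Pdk1, which restrains pyruvate dehydrogenase, was at 10.4 and 8.45 TPM (1.26, 1.03 to 1.54), and the dehydrogenase subunit gene Pdha1, with divided reads, at 1.13 (1.09 to 1.18). Pdk2 (0.902, 0.783 to 1.04) and the mitochondrial glutamate carrier Slc25a22 (1.19, 0.982 to 1.44), also with divided reads, had intervals that hold 1.

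The authors' deposited table of enriched terms among genes higher with Aβ names 2 of the 62 genes, Slc1a5 and Slc7a2. In the authors' deposited table the term carboxylic acid transport holds 18 of 391 genes, Slc1a5 and Slc7a2 among them, with a fold enrichment of 2.06 and an adjusted p of 0.0488. This enrichment p is the authors' and the term is at rank 274 of the 282. The table was deposited with these same 2 libraries, so it is no separate support for the 2 genes. Other transport terms, such as regulation of organic acid transport (rank 150) and regulation of transmembrane transport (rank 259), name none of the 62 genes. Slc7a2 is also named there under regulation of inflammatory response and 3 terms on leukocyte or macrophage activation, and Slc1a5 under myeloid cell differentiation. The authors' deposited table lists 282 terms that name 246 of the 391 genes, so a carrier outside these terms may still have been on the list.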

How the data were processed

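The authors deposited, per the file headers, estimated counts of reads, TPM and FPKM for each gene, and a score-like column named normalized read count that equals the read count rounded up and was not used. FPKM was not used. Per the submitters' processing notes, Bowtie2 and the Rnor_6.0 genome were used; the sources used here name no counting tool or annotation. The second deposited file lists enriched terms with, per the file headers, a rich factor and a fold enrichment ratio, p-values, a z score and numbers of genes.

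Estimated reads were rounded to whole numbers, and ratios were scaled by total reads. Clopper-Pearson intervals were computed with SciPy 1.17.1, and edgeR 4.0.16 gave TMM scaling as an alternative. Counts were simulated for 17049 genes, and 95.7% of intervals held the true ratio among genes with 50 or more simulated reads. The simulation held counting error only, which these intervals assume, so a share near 95% was built in. It checks the calculation and says nothing about variation between cultures. Genes with divided reads had estimated counts that were not whole (3 of the 62). The genes and lists were chosen with earlier results of these data known. Named were carriers past the fold or counting error, the most abundant of each family and a list of 31, and in each related list the 4 with the largest log2 ratio in either direction; the remaining carriers with values were named for completeness. A RefSeq table (GRCr8) gave names and neighbours, and all 62 gene numbers matched it. The alternative that leaves out Slc7a6os and Slc43a3 was added after the data were seen. In the totals, 2 of the carriers are counted but not reported here by name.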

Additional observations from a re-analysis of the deposited data

How the results depend on the processing

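With 1 library per group no replicate could be left out. No paired analysis was possible because each group has 1 library and the result comes from no test. Counting error limits the scarce carriers, since 17 of the 62 have fewer than 50 reads. Scaling by the median read ratio or by TMM shifted log2 ratios by less than 0.01 and changed 1 call among the 45 genes, Slc16a11, which became lower by reads with the median scaling. The number past the fold depended on the rule: with 1.5-fold 0 were higher and 2 lower, with 2-fold 0 and 0, with 200 or more reads 3 and 0, and with TPM + 1 2 were higher. With every gene that had more than 3 reads in either library 8 were lower. With a 99% interval 2 were lower by reads, in place of 7. Leaving out Slc7a6os and Slc43a3 gave 4 higher past the fold and a median log2 ratio of −0.03. With TPM + 0.1, Slc16a7 moved outside its counting interval; in the related lists no count or median moved with the scaling.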

Other observations

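Reads and TPM gave nearly the same ratio for most genes. The TPM ratio and the read ratio differed by 1.2-fold or more for 69 of 12507 genes with 50 or more reads (0.552%) and for 1 of the 45 carriers, Slc16a7. Slc38a9 (0.852) and Slc7a3 (0.840) came next among carriers in the TPM ratio over the read ratio, where the median of all genes was 1.01. For Slc7a3 the TPM values were 2.11 with Aβ and 1.68 in the control, a ratio of 1.26, against a read ratio of 1.496.

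Pairs of carrier genes that neighbour each other in the RefSeq table did not all share a direction. Slc38a1 and Slc38a2 had ratios of 0.952 and 0.955, while Slc16a13 and Slc16a11 had 1.07 and 0.653, and Slc7a6 and Slc7a6os 0.978 and 1.11.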
